A study of Rattus norvegicus with 9 samples.

Results

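The genes described here are those whose hypothalamic level ran against that of Ogn, the gene of osteoglycin, a small matrix proteoglycan made by the fibroblasts of the meninges. They were chosen by the measured values themselves: every probe set with a single gene symbol and a range over 0.05 log2 units, whose Pearson correlation with 1 of the 4 Ogn probe sets across the 9 arrays was -0.6 or less. Of 936 such probe sets, 56 (5.98%) met that limit, and 4 of them, of Trh, Gad2, Nts and Tac3, were left out by the rule. The 52 remaining probe sets stand for 46 genes, out of 843 genes with a variable probe set and 14217 named genes on the array. Most genes could not be chosen, since 29759 of all 31042 probe sets (95.9%) ranged over less than 0.01 log2 units. Since the correlations with Ogn made the choice, they are given only as a description and carry no test. All 9 animals were male rats aged 13 weeks, 1 array per rat, and all ate a diet with 30% instant noodle by weight and 26% of its energy from fat, given for 30 days in one label and for 4 weeks in another, at about 60 g per kg of body weight per day. Rats 1, 4, 7 and 13 had the noodle diet with its seasonings, and rats 2, 5, 8, 11 and 14 had the control diet, the same feed with no seasonings, as the series description has it. The tissue was labelled hypothalamus, with no dissection borders stated, and the labels name no strain.

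The meninges are the sheets of connective tissue around the brain, and their fibroblasts make collagens, proteoglycans and solute carriers that neurons lack. The hypothalamus beneath them is a mosaic of nuclei whose neurons are largely peptidergic, and most also release GABA or glutamate. Neurons as a class are marked by the proteins of the synaptic vesicle cycle, axonal motors, neurofilaments and voltage-gated channels, and inhibitory neurons by Slc32a1, the transporter that loads GABA into vesicles. In RNA from whole tissue, fewer cells of a type and less RNA per cell cannot be told apart.

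To show the sequence in front of genes that moved together, the 250 bases before the start of transcription are given for the member of lowest correlation in each of 4 neuronal gene lists, among members with a listed promoter. The windows are from RefSeq on build GRCr8, read 5′ to 3′ on the plus strand: Slc32a1 at chr3:167686995-167687244, Vamp1 at chr4:159698644-159698893, Kcnc1 at chr1:106038997-106039246 and Htr2c at chrX:115452940-115453189. Capitals mark matches on either strand to a CCAAT box (CCAAT), a GC box (GGGCGG) or a cAMP response element (TGACGTCA).
Slc32a1: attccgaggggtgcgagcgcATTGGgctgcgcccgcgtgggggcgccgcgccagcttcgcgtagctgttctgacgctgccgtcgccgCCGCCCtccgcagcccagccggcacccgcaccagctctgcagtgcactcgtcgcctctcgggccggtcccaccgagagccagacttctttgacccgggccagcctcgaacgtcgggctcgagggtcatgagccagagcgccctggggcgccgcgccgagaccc
Vamp1: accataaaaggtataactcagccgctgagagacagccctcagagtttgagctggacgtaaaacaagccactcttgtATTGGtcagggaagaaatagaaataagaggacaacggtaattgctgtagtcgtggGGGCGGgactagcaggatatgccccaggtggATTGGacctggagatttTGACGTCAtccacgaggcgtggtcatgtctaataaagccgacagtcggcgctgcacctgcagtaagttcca
Kcnc1: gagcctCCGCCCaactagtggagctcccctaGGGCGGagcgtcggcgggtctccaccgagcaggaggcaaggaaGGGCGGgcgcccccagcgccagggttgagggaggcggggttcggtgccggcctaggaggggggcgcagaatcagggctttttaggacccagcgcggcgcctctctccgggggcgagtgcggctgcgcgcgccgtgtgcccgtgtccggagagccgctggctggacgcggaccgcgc
Htr2c: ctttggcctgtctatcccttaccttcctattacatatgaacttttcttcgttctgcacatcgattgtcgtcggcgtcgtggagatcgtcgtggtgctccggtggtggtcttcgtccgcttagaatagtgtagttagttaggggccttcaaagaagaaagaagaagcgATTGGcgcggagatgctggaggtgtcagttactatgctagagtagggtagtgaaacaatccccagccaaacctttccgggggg
Over 41 member genes with a listed promoter (250 bases before to 50 after the start), the GC box was present in 29 (70.7%), against 57.5% of the promoters of 11700 genes of the array. The cAMP response element was present in 2 (4.88%, Kif5c and Vamp1) against 2.85%, and the CCAAT box in 14 (34.1%) against 37.3%. The TATA box (TATAAA) was present in 5 (12.2%) against 8.45%, and the core of the NRF1 motif (CGCATGCG) in 2 (4.88%) against 3.09%. The median GC content was 64% in members and 60% in all. A match describes the letters of a window and is not a binding site.

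Ogn itself stood at 7.70, 5.96, 5.81 and 6.76 in noodle-diet rats 1, 4, 7 and 13 and at 6.97, 6.90, 7.43, 5.80 and 5.55 in control rats 2, 5, 8, 11 and 14, on the deposited log2 scale. Rats 4, 7, 11 and 14 lay below 6, the others above 6.7, and both diets had rats on each side of that gap, so a correlation over the 9 rats also measures this step. The 3 other Ogn probe sets followed the chosen one at r = 0.99 each. Of 24 listed meningeal and fibroblast genes 22 were variable. Of these 22, Ogn included, 22 had r of 0.6 or more with the chosen probe set, against 41.2% of all variable genes. The list was chosen with earlier results of these data known, so the count is no test of the label of a meningeal signal. The mean deviation of the list without Ogn correlated with Ogn at r = 0.99 (Spearman rho = 1 over 9 rats). The mean of Ogn was 6.56 ± 0.87 (SD, n = 4) on the noodle diet and 6.53 ± 0.81 (SD, n = 5) on the control diet, and these differed by 0.025 (SE 0.53).

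The opposing genes changed little from rat to rat. Their ranges had a median of 0.30 log2 units (1.23-fold from the lowest to the highest rat), against 0.54 for the 347 genes that followed Ogn at r of 0.6 or more, and 44 of 46 ranged over less than 0.6. The mean deviation of the 46 genes was -0.15 in noodle-diet rat 1 and -0.07 in control rats 2 and 8, and 0.10, 0.08 and 0.11 in noodle-diet rats 4 and 7 and control rat 14. Noodle-diet rat 13 and control rats 5 and 11 lay between, at -0.01, -0.0022 and 0.02. Of the 46 genes 27 were lowest in noodle-diet rat 1, which had the highest Ogn, and 19 were highest in control rat 14, which had the lowest, an order that the choice of members largely fixes.

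**Figure D1:**
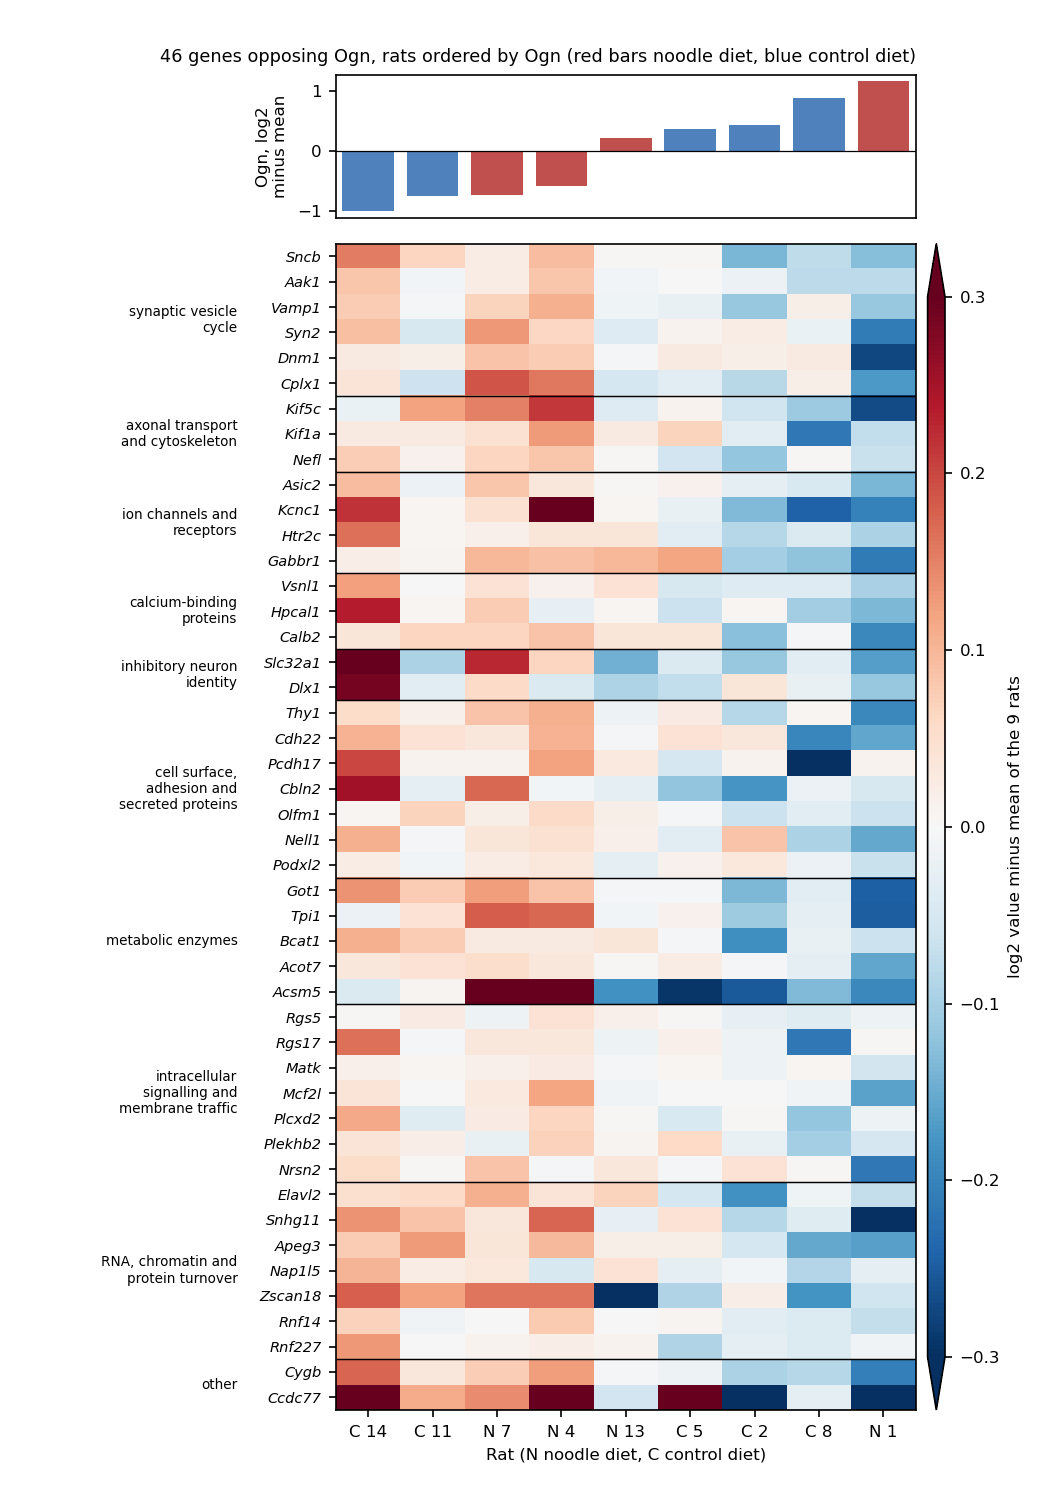
The heat map gives each of the 46 genes (rows, by role) in each of the 9 rats (columns, ordered by Ogn from low to high) as its log2 value minus the mean of the 9 rats, on a colour scale from -0.3 to 0.3, with Ogn minus its mean as bars above (red noodle diet, blue control diet). Members are mostly red in the rats with low Ogn on the left and blue in noodle-diet rat 1 on the right, and both diets occur at both ends.

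Genes of the synaptic vesicle cycle formed 1 group of 6, with r from -0.88 to -0.64. Values are given here and below in the order of rats 1, 4, 7 and 13 on the noodle diet and rats 2, 5, 8, 11 and 14 on the control diet. Sncb, or beta-synuclein, a presynaptic protein, measured 7.96, 8.18, 8.11 and 8.09 on the noodle diet and 7.95, 8.09, 8.01, 8.15 and 8.24 on the control diet, low in noodle-diet rat 1 and control rats 2 and 8 with the diets overlapping. Vamp1, a vesicle SNARE protein, measured 9.52, 9.74, 9.70 and 9.62 on the noodle diet and 9.52, 9.61, 9.65, 9.63 and 9.71 on the control diet. Cplx1, complexin 1, which binds the assembled SNARE complex, measured 9.46, 9.79, 9.82 and 9.58 on the noodle diet and 9.55, 9.60, 9.65, 9.57 and 9.67 on the control diet, so that noodle-diet rats 4 and 7 were above every other rat. Syn2, synapsin 2, which tethers vesicles, measured 8.54, 8.81, 8.88 and 8.71 on the noodle diet and 8.77, 8.76, 8.73, 8.70 and 8.84 on the control diet. Here too noodle-diet rat 1 was lowest. Dnm1, the dynamin that cuts vesicles from the membrane, stood at 10.33 in noodle-diet rat 1 and at 10.60 to 10.69 in the other 8, and its r of -0.65 became -0.52 without that animal, as that of Cplx1 went from -0.64 to -0.48. Aak1, a kinase of clathrin-mediated endocytosis, ranged over 0.16.

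Axonal motors and the light neurofilament chain gave 3 members. Kif5c, a kinesin heavy chain, measured 8.95, 9.43, 9.37 and 9.18 on the noodle diet and 9.16, 9.23, 9.11, 9.34 and 9.20 on the control diet. Kif1a, the kinesin that carries synaptic vesicle precursors, measured 9.26, 9.46, 9.38 and 9.36 on the noodle diet and 9.30, 9.40, 9.12, 9.36 and 9.36 on the control diet, with control rat 8 below the rest. Nefl, the light neurofilament chain, measured 9.75, 9.90, 9.88 and 9.82 on the noodle diet and 9.70, 9.76, 9.82, 9.83 and 9.89 on the control diet, lowest in control rat 2. A further probe set of Nefl was also a member (r = -0.68). The other neurofilament genes fell short of the limit, with r = -0.42 for Nefm and -0.38 for Nefh.

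Among channels and receptors, Kcnc1 had the widest range of the 4 members. Kcnc1, a Kv3 potassium channel of fast-firing neurons, measured 9.18, 9.71, 9.43 and 9.39 on the noodle diet and 9.25, 9.36, 9.14, 9.39 and 9.60 on the control diet, a 1.49-fold span in which noodle-diet rat 4 was highest and control rat 8 lowest. Htr2c, a serotonin receptor that curbs feeding, measured 9.54, 9.67, 9.65 and 9.67 on the noodle diet and 9.55, 9.60, 9.59, 9.64 and 9.80 on the control diet. It was highest in control rat 14. Htr2c is also abundant in choroid plexus, whose list had 2 variable genes: Ttr ran the other way (r = 0.78 with Ogn), while Prlr, just short of the limit, ran the same way as Htr2c (-0.593). The part of choroid plexus in the Htr2c values was not tested. Asic2, an acid-sensing channel, and Gabbr1, a subunit of the GABA-B receptor, ranged over 0.23 and 0.33. A variable further probe set of Gabbr1 ranged over 1.34 with r = -0.23, and correlated with the member probe set at only -0.26, so the probe sets of Gabbr1 disagreed.

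The members that name a neuron class were inhibitory ones. Slc32a1, the vesicular GABA transporter, measured 8.62, 8.85, 9.01 and 8.64 on the noodle diet and 8.67, 8.74, 8.75, 8.69 and 9.09 on the control diet, high in control rat 14 and noodle-diet rat 7. Dlx1, a homeobox factor of forebrain GABA neurons, measured 8.01, 8.08, 8.18 and 8.03 on the noodle diet and 8.16, 8.05, 8.10, 8.09 and 8.41 on the control diet, again highest in control rat 14. Calb2, or calretinin, a calcium-binding protein of GABA and of some glutamate neurons, measured 9.56, 9.84, 9.82 and 9.79 on the noodle diet and 9.63, 9.79, 9.75, 9.82 and 9.79 on the control diet. Its low values were those of noodle-diet rat 1 and control rat 2. Of the GABA synthesis genes, which the rule leaves out, Gad2 had r = -0.70 and Gad1 -0.55. Pvalb and Gabrg1, also of the GABAergic list, had r = 0.07 and 0.05. Of the glutamatergic list only Gria3 was variable (r = -0.36), so that list offered 1 candidate. The calcium sensors Vsnl1 and Hpcal1, broadly neuronal, had r = -0.82 and -0.80 with ranges of 0.22 and 0.37, and a further Hpcal1 probe set was a member at -0.69.

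Of the 7 cell surface and secreted proteins, Pcdh17 and Cbln2 moved most. Pcdh17, a protocadherin of synaptic contacts, measured 9.78, 9.89, 9.78 and 9.80 on the noodle diet and 9.78, 9.72, 9.43, 9.78 and 9.97 on the control diet, and its range comes from control rats 8 (low) and 14 (high). Cbln2, a secreted organizer of synapses, measured 7.98, 8.02, 8.20 and 8.0 on the noodle diet and 7.85, 7.91, 8.01, 8.0 and 8.28 on the control diet. Thy1, a glycoprotein of neuronal membranes, measured 9.73, 10.03, 10.01 and 9.91 on the noodle diet and 9.84, 9.95, 9.93, 9.94 and 9.98 on the control diet. The cadherin Cdh22, the neuronal glycoprotein Olfm1, the secreted protein Nell1 and the sialomucin Podxl2 ranged over 0.31, 0.13, 0.26 and 0.10.

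Metabolic enzymes were 5 of the members. Got1, the cytosolic aspartate aminotransferase that interconverts glutamate and aspartate, measured 9.47, 9.80, 9.84 and 9.71 on the noodle diet and 9.58, 9.71, 9.68, 9.79 and 9.85 on the control diet, with r = -0.89. Tpi1, a glycolytic isomerase, measured 10.58, 11, 11.01 and 10.82 on the noodle diet and 10.72, 10.84, 10.80, 10.87 and 10.81 on the control diet. Noodle-diet rats 4 and 7 were highest for it. Acsm5, a mitochondrial acyl-CoA synthetase, measured 5.64, 6.20, 6.55 and 5.65 on the noodle diet and 5.58, 5.54, 5.70, 5.84 and 5.79 on the control diet, so that only noodle-diet rats 4 and 7 stood above 6. Bcat1, which transfers the amino group of branched-chain amino acids to make glutamate, and Acot7, a brain acyl-CoA thioesterase, ranged over 0.29 and 0.21.

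The rest were signalling, RNA and other genes. Cygb, the haem protein cytoglobin, had the lowest correlation of all (r = -0.93) and measured 7.91, 8.24, 8.19 and 8.11 on the noodle diet and 8.02, 8.10, 8.03, 8.15 and 8.29 on the control diet. It is known from fibroblast-like cells outside the brain as well as from neurons. That it was low where the meningeal genes were high follows from the choice of members. Which cells it came from was not tested. Snhg11, a long non-coding RNA of neurons, measured 10.39, 10.89, 10.75 and 10.69 on the noodle diet and 10.63, 10.76, 10.68, 10.80 and 10.85 on the control diet, and a second Snhg11 probe set was a member at r = -0.75. A further variable Snhg11 probe set ranged over 0.94 and fell short of the limit at r = -0.51. Rgs17, a brake on G protein signalling, spanned 8.58 in control rat 8 to 8.96 in control rat 14. Zscan18, a zinc finger protein, spanned 7.98 in noodle-diet rat 13 to 8.47 in control rat 14. Elavl2, a neuronal RNA-binding protein, spanned 9.28 to 9.57. A further variable Elavl2 probe set had r = -0.31 and correlated with the member probe set at only 0.34. Nap1l5, an imprinted gene with a nucleosome assembly domain, spanned 12.03 to 12.22, and Apeg3, an antisense transcript of the imprinted Peg3 gene, 11.10 to 11.39 (r = -0.91). The widest range of all members was that of Ccdc77, which measured 5.91, 7.62, 7.08 and 6.88 on the noodle diet and 6.02, 7.49, 6.91, 7.05 and 7.48 on the control diet. Its second, variable probe set moved with it (r = 0.99 between them) but reached only -0.56 with Ogn. The remaining 8 members, Matk, Mcf2l, Plcxd2, Plekhb2, Nrsn2, Rnf14, Rnf227 and Rgs5, ranged over 0.07 (Rgs5) to 0.30 (Nrsn2). Rgs5 is a marker of pericytes, the mural cells of capillaries, and the other variable genes of the vascular list, Vtn and Tagln, followed Ogn instead (r = 0.87 and 0.78).

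**Figure D2:**
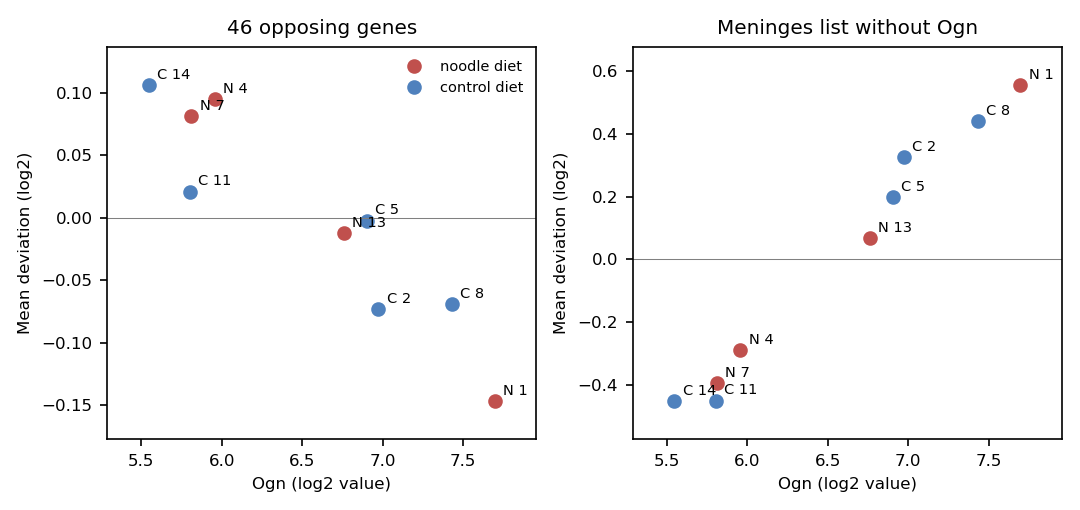
Each point is 1 rat (N noodle diet, red; C control diet, blue), with its Ogn log2 value on the horizontal axis and, on the vertical axis, the mean deviation in log2 units of the 46 opposing genes (left) or of the meninges list without Ogn (right). The opposing genes fall from 0.11 to -0.15 as the meningeal list rises from -0.45 to 0.56, and the left panel's vertical scale is narrower.

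Near the limit, the choice was a matter of small differences. Just inside it lay Dlx1 (-0.611), Nap1l5 (-0.612), Acsm5 (-0.623) and Pcdh17 (-0.626), and just outside it Tmem196 (-0.596), Prlr (-0.593), Ltk (-0.590) and Slco1c1 (-0.590). The correlation was negative within the noodle-diet rats and within the control rats for 46 of 46 genes, with medians of -0.90 over 4 rats and -0.72 over 5. The members were chosen over these same rats, and the mean of Ogn hardly differed between the diets (6.56 noodle, 6.53 control). The choice of members therefore largely fixes the negative sign within each diet, which is no separate evidence. With any single rat left out 25 of 46 kept r of -0.6 or less. The animal that mattered most was noodle-diet rat 1, without which 35 of the 46 kept it while the rule chose 78 genes in all. By rank, 36 of 46 had Spearman rho of -0.6 or less. Against the meninges list without Ogn, 41 of 46 kept it, and against the 3 other Ogn probe sets 40 to 42. All of these followed the chosen Ogn probe set at r = 0.99, so the choice of members largely fixes those counts. The array medians, which spanned only 6.777 to 6.785, also rose with Ogn (r = 0.985) and fell with the mean of the 46 genes (r = -0.92). The part of that in the result was not tested. A common array median cannot decide it, since it moves no value by more than that narrow span. With each array set to a common median the rule chose 56 genes and after quantile normalization 67, each time with all 46 among them.

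Other probe sets of the same genes, which the rule had not picked, mostly ran the same way. Of 44 such probe sets for 25 genes, 6 were variable, and all 6 had negative r, from -0.59 (Syn2 and Vsnl1) to -0.23 (Gabbr1). The other 38 were compressed, meaning that their values ranged over less than 0.01 log2 units, too little to read as a change of a transcript; the sign of r was still negative in 36 of 38, with a median of -0.53. Over all 19845 compressed probe sets with 1 symbol 55.0% were negative, with a median of -0.05. This holds for the deposited values alone, since quantile normalization turned 99.6% of all compressed probe sets negative and a common array median 100%.

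Among themselves the members moved as a loose group. Of 1035 pairs 1034 correlated above 0, with a median of 0.63, which the shared selection fixes in part. Once the linear relation with Ogn was removed from each gene, the median fell to 0.15, 650 of 1035 pairs stayed above 0, and the lowest pair stood at -0.82. The closest pairs were then Thy1 with Matk (0.96), Acot7 with Dnm1 (0.94), Got1 with Thy1 (0.91), Matk with Snhg11 and with Dnm1 (0.90 each), and Rgs17 with Pcdh17 (0.90). Among other high pairs, chosen here for their roles, Kcnc1 went with Aak1 (0.88), Nefl with Vamp1 (0.87) and Hpcal1 with Dlx1 (0.86). Correlations over 9 rats picked as the highest of many pairs are descriptions and have no test.

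Of the 46 members 11 were on a marker list, 10 of them on neuronal lists and Rgs5 on the vascular one. Of 46 genes 10 (21.7%) were on at least 1 of 7 neuronal lists, against 36 of 843 variable genes (4.27%) and 3 of 347 genes following Ogn (0.865%). They were Thy1 and Nefl of the pan-neuronal list, Slc32a1, Dlx1 and Calb2 of the GABAergic list, Vamp1, Syn2 and Cplx1 of the synaptic list, and Kcnc1 and Htr2c. These lists too were chosen with earlier results of these data known, so the share on them is no test of a neuronal label. On the lists for hypothalamic nuclei and for thalamus, cortex and striatum the only member was Calb2, listed for the mammillary region and for thalamus. That count cannot speak for the nuclei, since most of their markers were compressed and could not be chosen, with 1 variable gene for the ventromedial nucleus and 2 each for the paraventricular and suprachiasmatic lists. The peptide genes that could be chosen pointed both ways. Negative r was found for Oxt (-0.55), Avp and Hcrt (-0.31 each), Nmu (-0.20) and Pmch (-0.18). Positive r was found for Sst (0.04), Npvf (0.15), Cartpt (0.64), Npy (0.75) and Vip (0.78). The peptide genes that the rule leaves out all had negative r: Tac3 -0.68, Trh -0.64, Nts -0.61 and Gnrh1 -0.46.

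The same lists were then read over all their measured genes, compressed ones included, by the sign of r with Ogn. Of all named genes 53.0% had negative r, with a median of -0.03. All 18 pan-neuronal genes were negative (median -0.57), 16 of them no members. For the synaptic vesicle list it was 18 of 23 (median -0.52), for voltage-gated channels 23 of 27 (-0.52), for GABAergic neurons 9 of 11 (-0.38) and for glutamatergic neurons 11 of 12 (-0.37). The rule fixed the sign of the members among them. Without members it was 15 of 20 for the synaptic vesicle list, 22 of 26 for channels and 6 of 8 for GABAergic neurons. The glutamatergic list held no member. The other neuronal lists lay nearer to the share of all genes, with 25 of 36 for neuropeptide and monoamine receptors (-0.29) and 20 of 30 for hormone precursors (-0.19). Without the member Htr2c the receptor list had 24 of 35. Nuclei differed among each other, from 8 of 11 negative for the lateral hypothalamus (median -0.31), 7 of 11 for the paraventricular and supraoptic nuclei (-0.31) and 6 of 8 for the ventromedial nucleus (-0.26) to 5 of 17 for the arcuate (0.04) and 2 of 12 for the suprachiasmatic nucleus (0.30). Most of these are compressed values, with the limit on rescaling given above, and no list was tested.

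**Figure D3:**
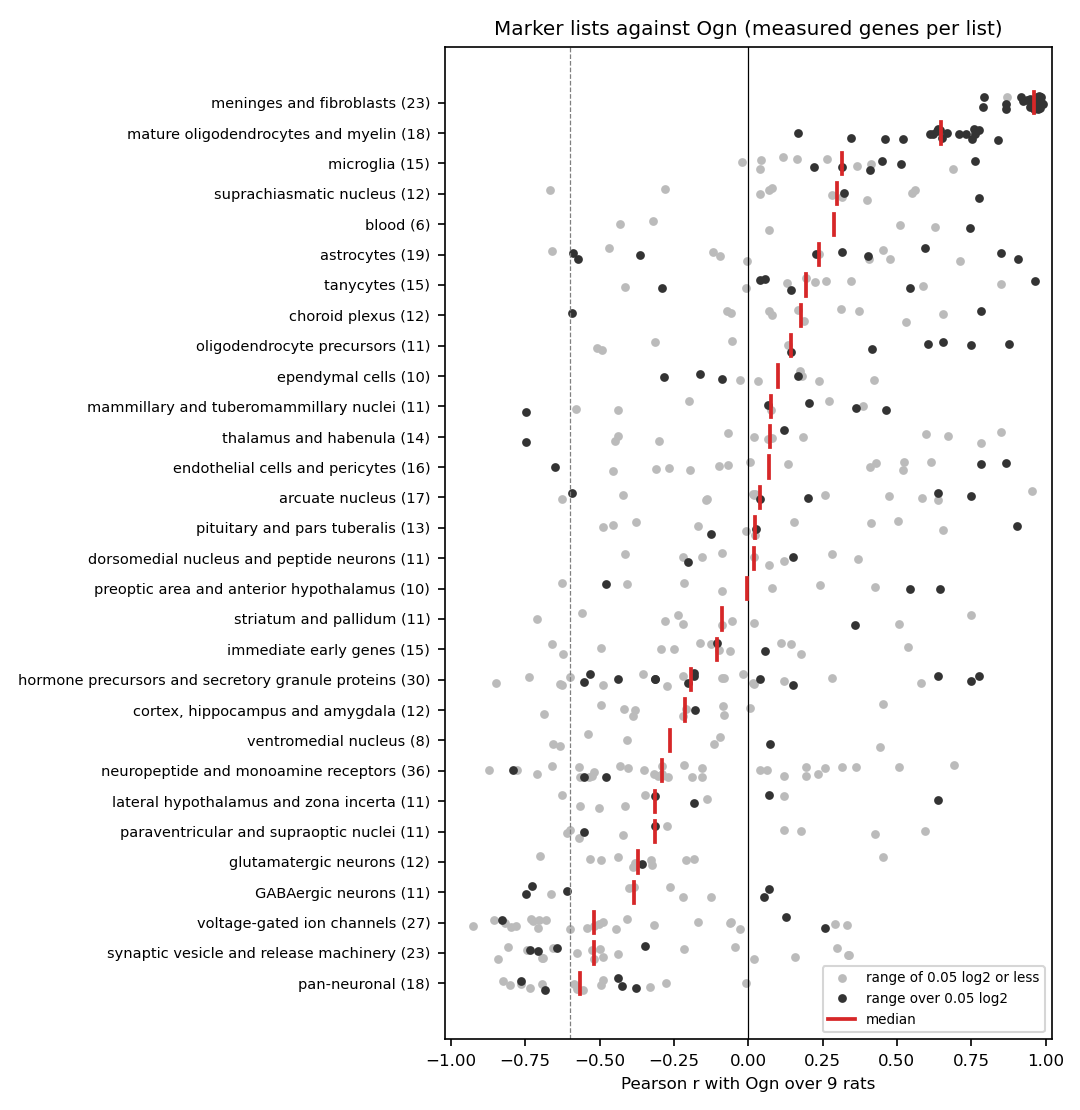
Each point is a measured gene of a marker list, by its Pearson correlation with Ogn over the 9 rats (horizontal axis), black where its range was over 0.05 log2 and grey where it was not; red bars are list medians, the dashed line marks -0.6, and lists run from the lowest median at the bottom to the highest at the top, with the number of measured genes in brackets. Pan-neuronal, synaptic and channel genes lie lowest (medians -0.57, -0.52 and -0.52), and meningeal (0.96) and myelin genes (0.65) highest.

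No glial list held a member. Of 51 variable genes on the lists of astrocytes, oligodendrocytes, their precursors, microglia, ependymal cells and tanycytes, 0 were members, where 5.46% of all variable genes were, and 22 (43.1%) followed Ogn, close to the 41.2% of all variable genes that did. Of the mature oligodendrocyte genes 14 of 18 followed it, with Mog at r = 0.64 and Mbp at 0.62. Variable astrocyte genes split, from Gjb6, a connexin, at 0.91 and Gfap at 0.85 to Slco1c1, a thyroid hormone transporter, at -0.59. The members divided by their relation to myelin: with Mog they correlated from -0.83 (Nell1) and -0.77 (Cdh22 and Pcdh17) to -0.05 (Vamp1), -0.01 (Bcat1) and 0.02 (Ccdc77), with a median of -0.40. With Gfap all 46 were negative, with a median of -0.56. The choice of members fixes that sign, since Gfap itself had r = 0.85 with Ogn, and it shapes the values with Mog in part. With the astrocyte gene S100b (r = 0.23 with Ogn) 26 of 46 were negative, with a median of -0.05. The part of myelin or of Gfap-rich glia in the members' values was not tested.

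No opposing gene passed the test between diets. By limma over all 31042 probe sets, 0 of 46 members had an adjusted p under 0.05 (0% of all probe sets did), and 0 of 46 had an unadjusted p under 0.05, against 2.29% of all and 0.899% of the 1223 variable probe sets. Since 95.9% of all probe sets were compressed, shares over all probe sets rest mainly on such values. Of the 46, 22 were higher and 24 lower on the noodle diet, and the median difference was -0.002 (0.004 over variable genes). All 46 differed by less than the SD of at least 1 diet, and 38 of 46 by less than the SD of both. The mean deviation of the members was 0.004 ± 0.11 (SD, n = 4) on the noodle diet and -0.003 ± 0.074 (SD, n = 5) on the control diet. Members were chosen by their correlation with Ogn, whose mean hardly differed between the diets (6.56 noodle, 6.53 control). That choice favours small diet differences, so these counts and means are no separate evidence on the diet. The 0 of 46 with an unadjusted p under 0.05 is also near the 0.899% of variable probe sets. Diets with no overlap were found for 0 of 46 members, against 0.567% of all and 0.0818% (1) of the variable probe sets, so a count of 0 is near the background.

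The largest difference was that of Acsm5, at 6.01 ± 0.44 (SD, n = 4) against 5.69 ± 0.13 (SD, n = 5), a difference of 0.32 (SE 0.20, 95% interval -0.13 to 0.77), with rats 4 and 7 above all others. Its limma p of 0.142 before adjustment was the smallest of the 46. Elavl2 measured 9.50 ± 0.075 against 9.44 ± 0.096 and Kif1a 9.37 ± 0.082 against 9.31 ± 0.11, with differences of 0.062 (95% interval -0.068 to 0.19) and 0.057 (-0.090 to 0.20). Nefl differed by 0.037 (-0.064 to 0.14). On the lower side Dlx1 measured 8.08 ± 0.078 against 8.16 ± 0.14, a difference of -0.086 (-0.26 to 0.091). Ccdc77 had the lowest difference, -0.11, beside its range of 1.71. Nrsn2, Dnm1 and Podxl2 differed by -0.046, -0.050 and -0.016, and these 3 were higher on the noodle diet once noodle-diet rat 1 was left out (0.017, 0.032 and 0.0025). Without that rat Tpi1, and without control rat 14 Rnf227, had a limma p of 0.0395 and 0.0491 before adjustment. With all 9 rats the limma adjusted p of each of these genes rounded to 1.

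**Figure D4:**
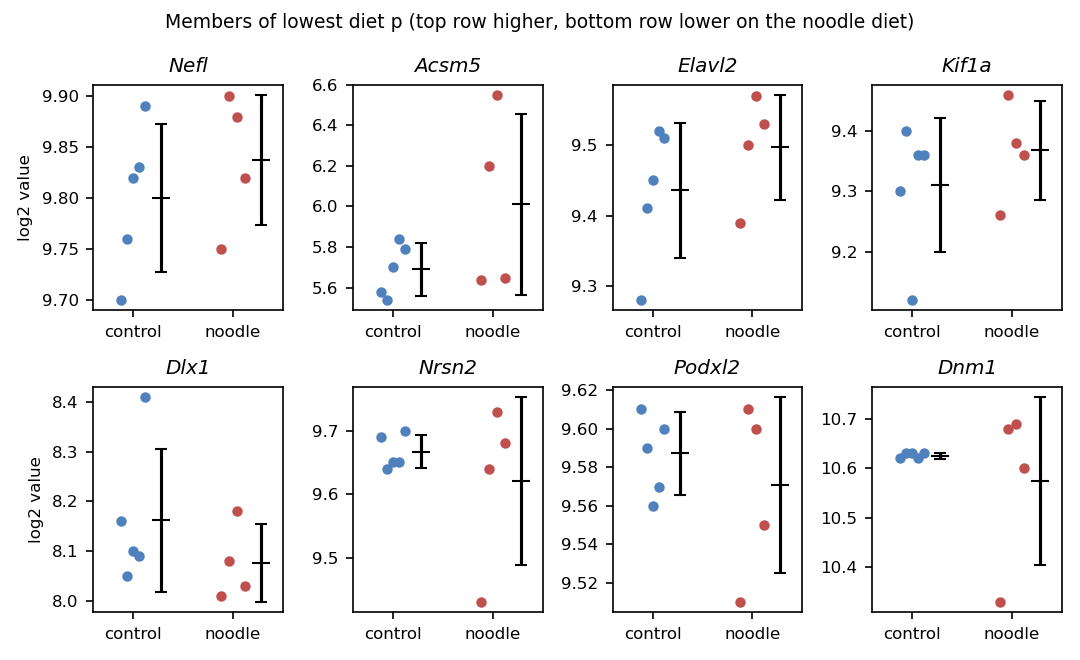
Points are the log2 values of single rats on the control (blue) and noodle diet (red) for the 4 members of lowest diet p in each direction, with bars for mean ± SD (n = 5 and 4); each panel has its own scale, which does not start at 0. The diets overlap in all 8 panels, and the spread of Dnm1 and Nrsn2 on the noodle diet comes from 1 low rat.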

How the data were processed

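Hypothalamic RNA of 9 rats (4 noodle diet, 5 control diet) was labelled as cRNA and hybridized with 1 array per rat. The authors deposited 1 table of log2 values per probe set; that scale was read from the range of values (5.13 to 13.7), and the sources used here name no summarization, normalization or scan batch. Values were used as deposited. The 57 control probe sets were left out, which left 31042, and GEO's platform annotation gave 1 symbol to 20826, several to 436 and none to 9780; gene numbers of 20758 were found in the RefSeq table (GRCr8), with 20758 symbols unchanged. Of the 31042 probe sets, 29759 (95.9%) were compressed, with a range under 0.01 log2 units over the 9 rats. The cause of this compression was not tested. Members were found with pandas 2.3.3. Genes with several member probe sets are given by the one of lowest r, and list genes by the variable probe set, or over all probe sets the one, of highest mean. Diets were compared with limma 3.58.1 in R 4.3.3 (intensity trend, 2-sided, Benjamini-Hochberg over 31042 probe sets, threshold 0.05). The fit was run on simulated data with changes larger than the diet difference of any member. That run therefore cannot show whether differences as small as those of the members would be found. The members, the 30 lists and the alternatives were chosen with earlier results of these data known, and the grouping by role after the members were known. Genes given in full are up to 6 members per list, the 15 of widest range, 4 on each side of the limit and 4 of lowest diet p in each direction; the others were named after their values were seen. The number of arrays limits the precision, and p-values measure the spread between these rats.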

Additional observations from a re-analysis of the deposited data

Results flagged for a closer look

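In 58 groups tested (both diets for each gene given in full and for the mean of the members), 1 held a rat set apart from its diet mates; about 2.9 (1 in 20) would occur by chance. It was Slc32a1 in control rat 14, at 9.09, with the other 4 control rats at 8.67 to 8.75.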

How the results depend on the processing

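The number of member genes, 46, became 27 at a limit of -0.7 and 76 at -0.5, and 47 to 78 with single rats left out, the most without noodle-diet rat 1. It stayed within 1.5 times of 46 under the other selection settings run, from 43 (another Ogn probe set) to 67 (quantile normalization), with 37 of the 46 shared under Spearman's rho and 46 for deviations from the diet mean (53 genes). The count on neuronal lists, 10, ran from 7 to 15 over all settings and from 8 to 14 with single rats left out. No member had an adjusted p under 0.05 in any limma fit run, and 0 to 1 had an unadjusted p under 0.05 with single rats left out. Without noodle-diet rat 1 the differences of Nrsn2, Podxl2 and Dnm1 turned to 0.017, 0.0025 and 0.032; with single rats left out they ran from -0.084 to 0.017, -0.031 to 0.0025 and -0.089 to 0.032; the cause was not tested. The difference of the members' mean ran from -0.023 to 0.058 in the same way. The other 5 members named for their diet p kept their direction in the fits that held them (the filter on low means drops Acsm5), but single rats moved their size: 0.14 to 0.44 for Acsm5, 0.023 to 0.096 for Elavl2, 0.010 to 0.092 for Kif1a, 0.013 to 0.066 for Nefl and -0.12 to -0.025 for Dlx1. Further compressed probe sets with negative r numbered 32 to 36 of 38 with single rats left out, and 38 of 38 after rescaling, where nearly all probe sets are negative. No paired analysis was possible because the diets share no rat number. The alternatives on other Ogn probe sets, neuronal counts, the member mean and further probe sets were added after seeing the data. The files give no signal over background.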
